A study of Homo sapiens with 2 samples.

Results

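A set of 10 genes of the apical actin cytoskeleton were examined in hepatic progenitors made from human embryonic stem cells. They were VIL1 (villin), the ERM genes EZR (ezrin), RDX (radixin) and MSN (moesin), ESPN (espin), EPS8, the microvillar cadherins CDHR2 and CDHR5, MYO1A and PLS1 (fimbrin, or plastin 1). The genes were chosen by symbol, and all 10 had a row among the 57158 genes of the table. The line was CyT49, an embryonic stem cell line. Cells at the definitive endoderm stage on day 2 were fed for 6 days in suspension in RPMI medium holding BMP4 at 50 ng/ml, FGF2 at 10 ng/ml and 0.2% FBS, and RNA was taken on day 8. The series analysed here holds 2 libraries of this 1 group and no control, so no effect of the factors or of time could be measured.

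A brush border is a field of microvilli on the apical face of an epithelial cell. Each microvillus has a core of parallel actin filaments bundled by villin, fimbrin and espin, capped at its tip by EPS8 and tied along its side to the membrane by myosin 1a and by the ERM proteins. CDHR2 and CDHR5 bind each other between the tips of neighbouring microvilli and hold them together. In the liver, hepatocytes and bile duct cells carry microvilli on the surfaces that face bile, and radixin is the ERM protein known from the bile canaliculus. Villin is also expressed early in the endoderm and in the visceral endoderm of the yolk sac.

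Levels are RPKM, reads per kilobase of gene and per unit of sequencing depth, and can be compared between genes because they are per length. A value of 0.1 stands for anything under 0.5 RPKM and is called the floor. Genes that reached 1 RPKM in each of the libraries are called detected. The normalization rested on 25182490 reads in library 1 and 25264802 in library 2, so 1 RPKM stood for 25.2 or 25.3 reads per kilobase. Over single-exon genes the libraries differed by 1.08 times counting variance, and they were counted as 1 sample. Their spread was read as technical, and the labels do not state whether the cultures were separate. Of 8 listed hepatoblast genes 8 were detected, from HNF4A at 44.7 RPKM to APOA1 at 2188. This list was chosen with earlier results of these data known, so it is a description and does not test the labelled cell type.

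The promoter sequences of the members differ in their density of CpG, the dinucleotide that is frequent in the promoters of broadly expressed genes. The RefSeq promoter table (GRCh38.p14) held windows for EZR, RDX, MSN, PLS1, CDHR2 and MYO1A. VIL1, ESPN, EPS8 and CDHR5 were not matched. The 250 bases before a start are shown 5′ to 3′ on the strand of the gene, with CpG in capitals, for 4 genes that run from the most abundant member to members at the floor. Where a gene had several windows, the one with the most CpG is printed. The densest windows of RDX and MSN overlap annotated exons and are not shown. The windows are chr6:158818236-158818485 (minus strand) for EZR, chr3:142596143-142596392 (plus) for PLS1, chr5:176542261-176542510 (plus) for CDHR2 and chr12:57050130-57050379 (minus) for MYO1A.
EZR: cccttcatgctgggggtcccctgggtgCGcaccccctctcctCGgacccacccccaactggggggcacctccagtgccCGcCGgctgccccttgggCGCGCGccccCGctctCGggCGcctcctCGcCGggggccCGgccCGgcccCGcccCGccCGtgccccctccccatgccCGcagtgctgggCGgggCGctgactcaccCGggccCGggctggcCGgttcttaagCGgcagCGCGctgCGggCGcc
PLS1: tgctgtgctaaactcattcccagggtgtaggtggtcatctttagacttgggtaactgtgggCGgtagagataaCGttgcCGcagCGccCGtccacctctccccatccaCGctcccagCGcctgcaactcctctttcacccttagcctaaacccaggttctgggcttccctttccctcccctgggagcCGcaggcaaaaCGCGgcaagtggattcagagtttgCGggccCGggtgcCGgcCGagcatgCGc
CDHR2: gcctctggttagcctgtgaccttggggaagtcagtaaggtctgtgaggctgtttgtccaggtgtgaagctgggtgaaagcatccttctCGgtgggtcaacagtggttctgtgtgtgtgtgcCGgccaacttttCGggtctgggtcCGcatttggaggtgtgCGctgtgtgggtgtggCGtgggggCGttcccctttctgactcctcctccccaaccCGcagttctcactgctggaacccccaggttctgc
MYO1A: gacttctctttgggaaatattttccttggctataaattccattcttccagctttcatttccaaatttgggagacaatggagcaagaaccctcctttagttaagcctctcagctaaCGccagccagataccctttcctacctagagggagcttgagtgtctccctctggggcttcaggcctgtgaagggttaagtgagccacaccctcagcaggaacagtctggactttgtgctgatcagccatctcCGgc

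Of the 10 members, 6 were detected and 4 lay at the floor in each library. Among all 19344 protein-coding genes, 59.8% were detected and 33.8% were at the floor, so both shares of the members were close to the background. The members fell into 3 tiers. EZR, VIL1, RDX and MSN lay at 28 RPKM or more in both libraries, ESPN and PLS1 lay between 2 and 5 RPKM, and EPS8, CDHR2, CDHR5 and MYO1A lay at the floor. In both libraries 4 of the 10 were at 20 RPKM or more, a level that 9.53% of protein-coding genes reached. The same 4 were at 10 RPKM or more, which 20.2% of protein-coding genes reached. Both levels fall in the gap between ESPN and MSN, so the size of this contrast depends on the level chosen. The median of the members was 2.95 RPKM beside 2.42 for all protein-coding genes. In bulk RNA, fewer cells expressing a gene and less RNA per cell cannot be told apart.

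**Figure D1:**
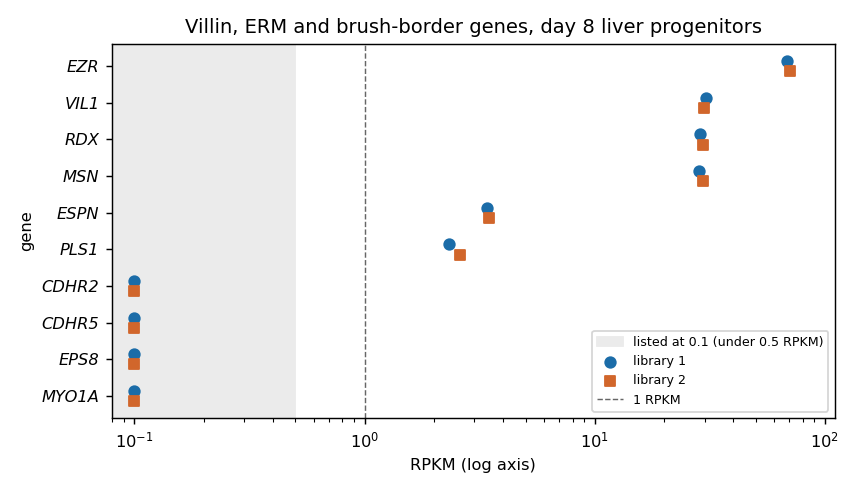
RPKM of the 10 genes (log axis) in library 1 (circles) and library 2 (squares), with the range read as under 0.5 RPKM shaded. EZR stands highest at 68.6 and 70.7 RPKM, VIL1, RDX and MSN lie together between 28.4 and 30.3, and 4 genes are at the floor in both libraries.

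The ERM proteins join actin filaments to membrane proteins and are switched on by phosphorylation near their C terminus. EZR, the ERM protein of most epithelia, had 68.6 and 70.7 RPKM in libraries 1 and 2. The gene, ENSG00000092820.13, lies on the minus strand of chromosome 6 from 159186773 to 159240400 (GRCh37) and stood at percentile 97.9 of protein-coding genes. RDX (ENSG00000137710.10, chromosome 11 from 109735021 to 110167437, minus strand) had 28.6 and 29.5 RPKM. MSN, the ERM protein best known from blood and endothelial cells, had 28.4 and 29.4 RPKM (ENSG00000147065.11, chromosome X from 64808257 to 64961793, plus strand). All 3 were thus expressed, with EZR above the others in each library and the values of RDX and MSN overlapping.

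Ezrin held 54.6% of the summed ERM level in both libraries, with sums of 125.7 and 129.6 RPKM. Radixin held 22.8% in each library, and moesin held 22.6% and 22.7%. EZR was 2.40-fold above RDX and 2.41-fold above MSN. The difference between libraries was small for each gene: 0.045 on the log2 scale for EZR, 0.042 for RDX and 0.047 for MSN, all higher in library 2. Counting alone would give standard errors of 0.028, 0.036 and 0.038, from about 5271, 3167 and 2836 reads in library 1 if the canonical transcript length applies.

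Processed pseudogenes of these genes can take reads from them. MSNP1, a copy of moesin, had 2.32 and 2.996 RPKM, and RDXP1 and RDXP2 were each above the floor in 1 library only, while the ezrin copy EZRP1 was at the floor in both. When the copies were added by length, MSN came to 30.1 RPKM and RDX to 29.2, which turned their order around. MSN with its copy also stood just above VIL1, which had a mean of 30.0 RPKM. The order of MSN beside RDX and VIL1 is therefore not resolved.

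Partners of the ERM proteins were mostly expressed. Of 12 genes in that list 10 were detected, 1 was at the floor and the median was 6.19 RPKM. NHERF1 (EBP50), the scaffold that links ezrin to membrane transporters, had 82.6 and 84.1 RPKM and so stood 1.20-fold above EZR. Its relative NHERF2 had 7.76 and 7.37 RPKM, and NHERF1 was 11.0-fold above it. PODXL (podocalyxin), an apical sialomucin that binds ezrin through NHERF scaffolds, had 47.1 and 47.2 RPKM, and the scaffold PDZK1 had 40.9 and 40.8. STK10, a kinase of the ERM proteins, had 2.27 and 2.04 RPKM. CD44, an ERM-binding receptor for hyaluronan, was at the floor in both libraries, and NHERF4 lay at 0.73 and 0.75 RPKM.

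VIL1 encodes villin, which bundles actin and, when calcium is high, severs it. It had 30.3 RPKM in library 1 and 29.7 in library 2 (ENSG00000127831.6, chromosome 2 from 219283844 to 219318018, plus strand), at percentile 94.1 of protein-coding genes. The libraries differed by -0.025 on the log2 scale, within the standard error of 0.029 that counting gives. VIL1 was 1.03-fold above RDX, a distance of the same size as the difference between libraries, although the values did not overlap. EZR was 2.27-fold above VIL1 in library 1 and 2.38-fold in library 2. On the log2 scale VIL1 lay 0.046 above RDX by the mean, 0.080 in library 1 alone and 0.013 in library 2 alone, so the size of this step depended on the library, and RDX lay 0.010 and 0.0050 above MSN.

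**Figure D2:**
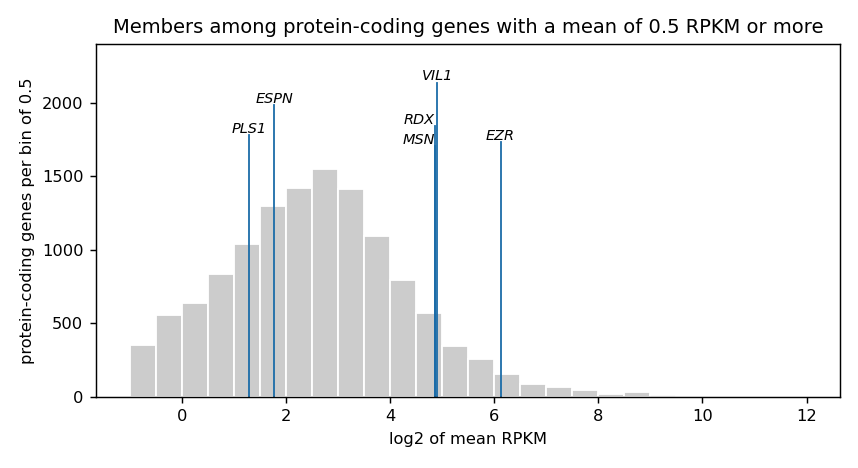
Number of protein-coding genes per bin of 0.5 in log2 of mean RPKM, for genes with a mean of 0.5 RPKM or more, with the 6 detected members as lines (line height carries no value). VIL1, RDX and MSN nearly coincide at 28.9 to 30.0 RPKM in the upper part of the distribution, EZR stands further up at 69.7, and PLS1 and ESPN lie below its peak.

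Villin belongs to the gelsolin family of actin-binding proteins, of which 8 genes were compared. Gelsolin (GSN), which severs and caps filaments, had 40.9 and 41.1 RPKM and was 1.37-fold above VIL1. FLII had 29.9 and 29.1 RPKM, which overlapped with VIL1. SVIL (supervillin) had 5.71 and 5.56 RPKM and CAPG 4.47 and 4.45. VILL, the gene of the villin-like protein, had 1.14 and 1.29 RPKM, so VIL1 was 24.6-fold above it. AVIL (advillin) and SCIN (scinderin) were at the floor in both libraries. Villin made up 26.9% and 26.7% of the summed level of the family.

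The other core bundlers were much lower than villin. ESPN, the espin gene of microvilli and of the stereocilia of the inner ear, had 3.38 RPKM in library 1 and 3.48 in library 2 (ENSG00000187017.10, chromosome 1 from 6484836 to 6521427, plus strand), so VIL1 was 8.75-fold above it. PLS1, the plastin of intestinal microvilli, had 2.33 and 2.59 RPKM (ENSG00000120756.8, chromosome 3 from 142315235 to 142432506, plus strand). It differed most between libraries among the detected members, by 10.5% of its mean, or 0.15 on the log2 scale with a counting standard error of 0.13. ESPN was 1.39-fold above PLS1 and the libraries did not overlap. They stood at percentiles 56.2 and 50.2, in the middle of all protein-coding genes.

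Relatives of PLS1 and other bundlers were abundant in the same RNA. PLS3, the plastin of many solid tissues, had 34.4 and 34.7 RPKM, 14.02-fold above PLS1. LCP1 (plastin 2), known from blood cells, had 40.4 and 39.6 RPKM, 16.2-fold above PLS1. PLS1 thus held 3.03% and 3.37% of the summed plastin level. Fascin (FSCN1), the bundler of filopodia, had 158.3 and 155.3 RPKM, 45.7-fold above ESPN, and the crosslinker ACTN4 had 84.9 and 83.7. The espin-like gene ESPNL was at the floor. Of 6 blood markers given beside LCP1, 1 was detected (CORO1A), PTPRC, CD53, LAPTM5, SPI1 and CD34 lay at the floor, and the list summed to 1.68 and 1.69 RPKM.

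The value of ESPN has limits. Its duplicate ESPNP was at the floor in both libraries, but the near-identical copies could share reads. TNFRSF25, which overlaps ESPN on the opposite strand, had 4.04 and 3.82 RPKM. The libraries keep strand, but whether the counting did is not given in the sources used here. Of 6 inner ear hair cell markers 1 was detected, ATOH1 at 1.11 and 1.24 RPKM, and POU4F3, GFI1, OTOF, MYO15A and TMC1 were at the floor.

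EPS8, which caps actin filaments at the tip of the microvillus and also bundles them, was at the floor in both libraries (ENSG00000151491.8, chromosome 12 from 15773068 to 16035263, minus strand). On its canonical transcript 0.5 RPKM would be about 49 reads, so a low level would not be seen. Its relative EPS8L2 had 12.7 and 13.1 RPKM, at least 25.3-fold higher than EPS8 taken at 0.5 RPKM. EPS8L1 had 3.04 and 2.89 RPKM and EPS8L3 was at the floor. BAIAP2L1 (IRTKS), which binds EPS8 and the curved tip membrane, had 20.2 and 20.5 RPKM, whereas its relative BAIAP2L2 had 0.77 and 0.99. Of the 8 relatives and partners of EPS8, 6 were detected.

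MYO1A, the motor that ties the actin core to the membrane in intestinal microvilli, was at the floor in both libraries (ENSG00000166866.8, chromosome 12 from 57422301 to 57444982, minus strand). TAC3, which overlaps its gene model on the same strand, had 10.7 and 10.4 RPKM. Other class I myosins were expressed. MYO1C had 18.5 and 18.96 RPKM, at least 36.99-fold higher than MYO1A taken at 0.5 RPKM. MYO1D had 8.10 and 8.36 RPKM and MYO1E 3.37 and 3.20. MYO1F, MYO1G and MYO1H were at the floor. MYO1A could hold at most 1.64% of the summed level of these 7 myosins in library 1 and 1.61% in library 2. MYO6, the motor of apical endocytosis that moves towards the base of the microvillus, had 14.9 and 15.0 RPKM.

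**Figure D3:**
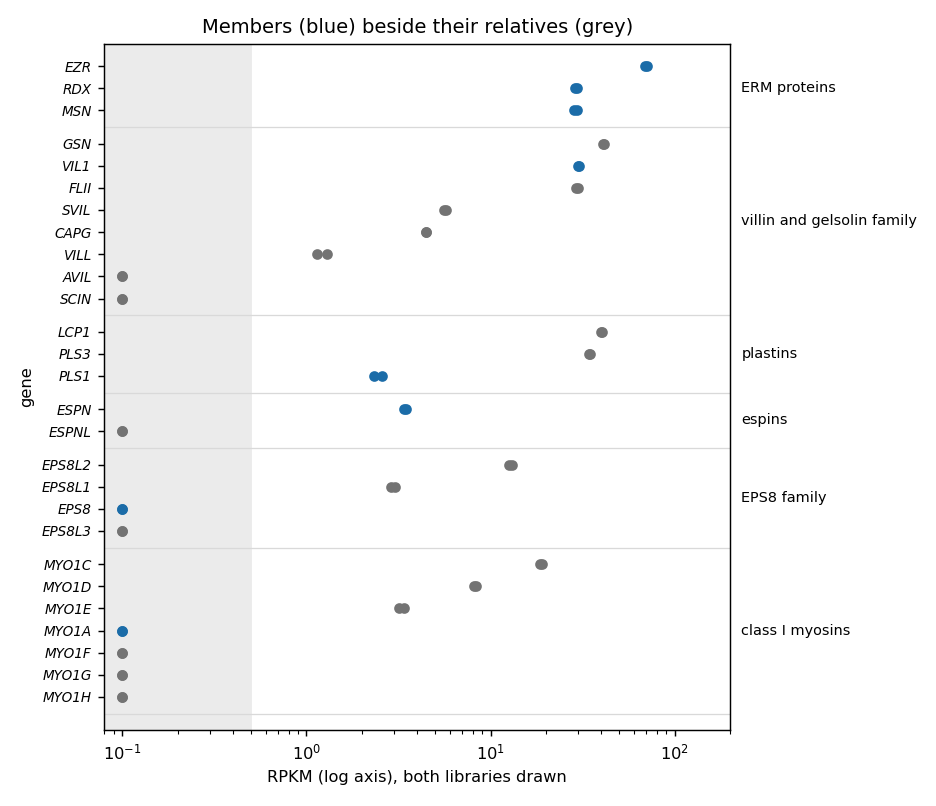
RPKM in both libraries (log axis) for the members (blue) and the relatives of each (grey), with the range read as under 0.5 RPKM shaded. EPS8 and MYO1A are at the floor while EPS8L2 stands at 12.9 and MYO1C at 18.7, and PLS1 at 2.46 stands below LCP1 at 40.0 and PLS3 at 34.5.

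The cadherins that join microvillar tips were both at the floor. CDHR2 is ENSG00000074276.6, on chromosome 5 from 175969512 to 176022975 (plus strand), and CDHR5 is ENSG00000099834.14, on chromosome 11 from 616577 to 626078 (minus strand). On their canonical transcripts 0.5 RPKM would be about 53 and 42 reads. Of the cytoplasmic genes of their complex, the scaffold USH1C (harmonin) and the motor MYO7B were at the floor too. The scaffold ANKS4B had 3.32 and 3.47 RPKM, and the light chain CALML4 had a mean of 2.16. The intermicrovillar adhesion complex was therefore represented by 2 of 4 partner genes and neither cadherin.

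Beneath the microvilli, the terminal web of spectrin, tropomyosin and keratin was represented by 9 of 12 genes. KRT8 had 193.7 and 193.2 RPKM, KRT18 116.5 and 120.7, TPM3 45.6 and 45.3, and the spectrin chain SPTAN1 32.2 and 32.6. COBL, an actin nucleator of microvilli, had 4.13 and 4.04 RPKM. MISP, which sits at microvillar rootlets, the intestinal keratin KRT20 and SPTBN5 were at the floor. Over the 7 lists of microvillus genes that are not members, 46 of 61 genes (75.4%) were detected beside 59.8% of protein-coding genes, 13 were at the floor, and the median was 5.86 RPKM. No test was made of this difference in share. These lists were chosen with earlier results of these data known. They include genes not particular to microvilli, such as PLS3 and FSCN1.

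Enzymes and transporters of the intestinal brush border were nearly all at the floor. Of 14 genes, 13 were at the floor in both libraries, among them SI (sucrase-isomaltase), LCT (lactase), ALPI, CDH17 and FABP2. The exception was NPC1L1, the cholesterol transporter of gut and human liver, at 4.07 and 3.61 RPKM. Of 10 genes of intestinal identity 4 were detected, among them HNF4G at 2.42 and 2.23 RPKM, the homeobox gene ISX at 2.89 and 3.01 and CDX2, the intestinal master regulator, at 2.13 and 2.11. HNF4G is also expressed in other endoderm. CDX1, LGALS4, PHGR1, OLFM4 and MUC2 were at the floor, and the list summed to 11.9 and 11.3 RPKM. VIL1 was thus found with intestinal hydrolases at the floor and CDX2 low but detected, and what intestinal-type cells add to the VIL1 level was not tested.

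Apical peptidases shared by several epithelia were present at lower levels than VIL1. Of 7 such genes 3 were detected, DPP4 at 10.4 and 10.8 RPKM, ANPEP (aminopeptidase N) at 6.01 and 5.96 and GGT1 at 4.78 and 4.72, while ENPEP and MME were at the floor. All 6 genes of apical uptake known from visceral endoderm were detected. The highest, the clathrin chain CLTC at 36.3 and 36.99 RPKM, is used by most cells. AMN (amnionless), the anchor of cubilin, had 18.8 and 17.8 RPKM, LRP2 (megalin) 9.03 and 8.78 and CUBN (cubilin) 7.29 and 7.10. Cubilin, megalin and amnionless are shared with the kidney. LHX1, a listed marker of the proximal tubule, was not matched to a row. Of the 6 other markers 0 were detected, with PAX8, SLC34A1 and SLC3A1 at the floor. PAX2, AQP1 and SLC22A6 lay between 0.5 and 1 RPKM, and the sum was 2.16 and 2.13 RPKM. The part of kidney-type cells in these levels was not tested.

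The apical surface of hepatocytes is the bile canaliculus. Of 13 listed genes of its transporters and of apical trafficking, 7 (53.8%) were detected, close to the 59.8% of protein-coding genes, and 5 were at the floor. ABCB1, ABCB4, ABCB11, ABCG5 and the adhesion molecule CEACAM1 were at the floor, and ABCC2 (MRP2), the transporter known to need radixin for its place at the canaliculus, had 2.08 and 1.96 RPKM. The trafficking genes were higher, with RAB11A at 22.2 and 21.1 RPKM, the syntaxin STX3 at 16.3 and 15.6 and RAB8A at 9.55 and 10.2. Radixin at 29.1 RPKM thus stood 14.4-fold above ABCC2.

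**Figure D4:**
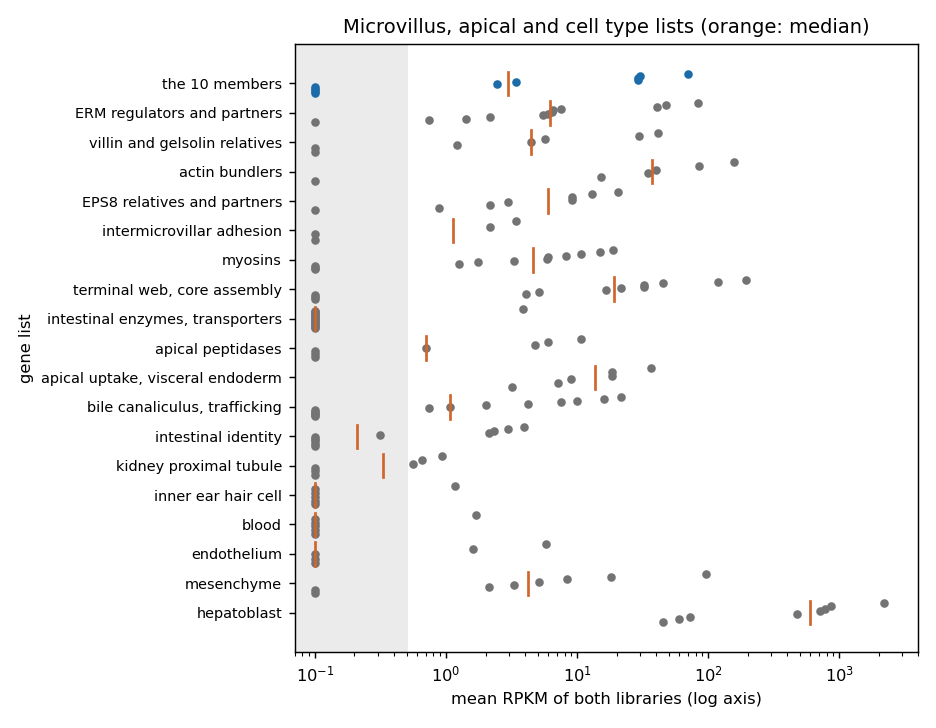
Mean RPKM of both libraries (log axis) for each gene of the lists, with medians as orange lines and the range read as under 0.5 RPKM shaded. The intestinal enzymes and transporters lie at the floor apart from NPC1L1 at 3.84 RPKM, while the actin bundlers have a median of 37.3 and hepatoblast genes one of 591.7.

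MSN is also expressed in mesenchyme, endothelium and blood, so markers of these cells are given beside it. Of 8 mesenchyme markers 6 were detected, with VIM at 94.4 and 95.8 RPKM, PDGFRA at 18.5 and 17.9 and COL1A1 at 8.29 and 8.30, and with TWIST1 and COL3A1 at the floor. The list summed to 131.8 and 132.5 RPKM. PECAM1, a listed endothelial marker, was not matched to a row. Of the 5 other endothelial markers 2 were detected, ESAM at 5.52 and 5.99 RPKM and KDR at 1.60 and 1.61. CDH5, TEK and TIE1 were at the floor, and the sum was 7.12 and 7.60 RPKM. The part of such cells in the MSN level was not tested.

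The tiers of level were set beside the promoter windows. EZR had 28 CpG dinucleotides in its 250 bases, RDX 38 and MSN 26 in the denser of its 2 windows, with 5 in the other. PLS1 had 15 in the densest of 3 windows and 0 in both others. CDHR2 had 8 and 6 and MYO1A 2 and 1. Among the 6 members with a window, the 3 ERM genes thus had the CpG-rich windows and PLS1 an intermediate one. CDHR2 and MYO1A, both at the floor, had the poorest. The other 4 members, VIL1, ESPN, EPS8 and CDHR5, had no window and could not be placed, so the match of tier and CpG is not known for them. The same order held across the table. Of 14982 protein-coding genes with a window, 79.7% were detected where the densest window had 20 CpG or more, 70.0% at 10 to 19, 33.0% at 5 to 9 and 13.0% at 0 to 4. The 6 members with a window therefore lay as the genes of their class mostly did, and nothing particular to them is shown.

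**Figure D5:**
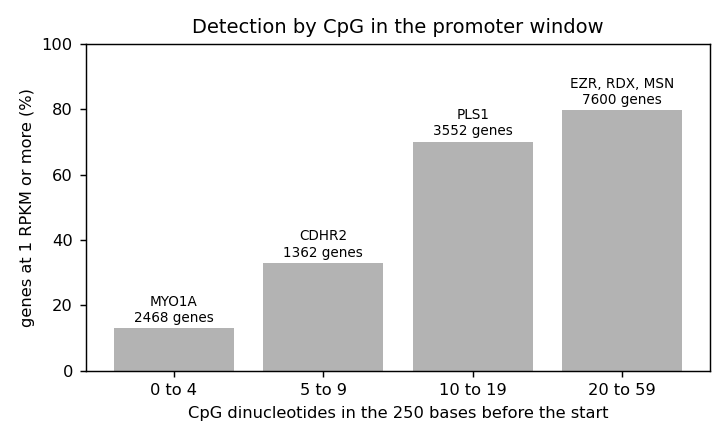
Percentage of protein-coding genes at 1 RPKM or more in both libraries (bars from 0), by the number of CpG dinucleotides in the 250 bases before the start, with the members of each class named above the bar. Detection rises from 13.0% in the CpG-poorest class, which holds MYO1A, to 79.7% in the richest, which holds EZR, RDX and MSN.

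Short motifs were searched on both strands of the same windows. The GC box GGGCGG occurred 3 times in the EZR window, 3 times in that of RDX, 4 times in the denser MSN window and 1 time in the densest of PLS1, and in neither window of CDHR2 or MYO1A. It was found in 42.6% of all 35116 windows. TATAAA, the letters of the TATA box, was found in 1 member window, the printed one of MYO1A, and in 10.7% of all. It lies near the 5′ end of that window, far from the start. TTTATNG, a form of the site of CDX factors, occurred in both MYO1A windows and in 1 of PLS1, and in 8.93% of all. In the printed MYO1A window the CDX match, on the opposite strand, shares its letters with TATAAA, so both are the same stretch. All of these motif hits are matches of letters and not sites of binding.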

How the data were processed

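Poly(A) RNA was sequenced from 2 strand-specific libraries of 1 group, per the labels' protocols. The authors deposited 1 table of RPKM values for 57158 Ensembl genes. Tools listed in the submitters' processing notes are Cufflinks 2.2.0, STAR 2.3.0e and FastQC 0.10.1, the series text names Sailfish and hg19, and the tool behind the values is not given in the sources used here. The table has 0 values between 0.1 and 0.5. RPKM divides by 1 length per gene, so a long or rarely used exon lowers it.

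Identifiers were joined without version to GENCODE 44 on GRCh37 (54428 matched, 95.2%). Of 170 listed symbols 166 matched, 3 by a RefSeq synonym. Read numbers were taken from single-exon genes, of which 84.0% and 84.3% gave whole reads within 0.02. Over 777 such genes with a mean of 50 reads or more, the difference between libraries was 1.08 times counting variance, so both were counted as 1 sample. That step was tested on simulated data. Separate cultures are not stated in the labels. Approximate reads of members assume the canonical transcript.

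No test was possible with 1 group. The members and lists were chosen with earlier results of these data known. Some genes that the rule below names are not reported here by name, while list counts include them. Named genes are the members, up to 5 highest and 5 lowest genes of each list, and all genes of the adhesion complex and copy lists. The families of relatives, the promoter windows and the motifs were chosen after the values were seen, as were overlapping genes and MYO1E. Alternatives left out each library or changed the detection limit, the pseudocount, the background or the treatment of copies. Work used Python 3.11.15, pandas 2.3.3 and numpy 2.4.6.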

Additional observations from a re-analysis of the deposited data

How the results depend on the processing

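Leaving out either library kept 6 members detected and 4 at the floor, and kept the order of the detected members, while the distance of VIL1 above RDX ranged from 0.013 to 0.080 on the log2 scale. The count was 6 at a limit of 0.5 RPKM and 4 at 5 RPKM, where ESPN and PLS1 dropped out. The microvillus lists had 48 genes at 0.5 RPKM and 33 at 5 RPKM, beside 46. Adding pseudogene copies moved MSN to 30.1 RPKM and the ezrin share of the ERM level to 54.0%, and adding RDXP3 as well, which was chosen after seeing the data, moved RDX to 29.9 RPKM. A pseudocount lowered the distance between MSN and ESPN from 3.08 on the log2 scale to 2.76 (1 RPKM) and 3.04 (0.1 RPKM), and that between ESPN and PLS1 from 0.48 to 0.36 (1 RPKM), since it weighs most on low genes. Among detected genes only, ESPN stood at percentile 26.8 and PLS1 at 16.8. No paired analysis was possible because there is 1 group. The cutoff of the deposited values limits the 4 genes at the floor. Anything under 0.5 RPKM is listed at 0.1, so levels up to about 42 to 53 reads in library 1 could go unseen.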
